A study of Homo sapiens with 2 samples.

Results

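Runs of close TET1 peaks are stretches of the genome where 5 or more neighbouring V5 ChIP peaks followed each other with gaps of 3 kb or less. They were found by sorting the peaks of chromosomes 1 to 22 and X by start and joining neighbours while the next start lay no more than 3000 bp past the previous end. Of 46117 peaks on these chromosomes (46208 in the whole list), 3369 fell into 528 such runs, which is 7.31% of the peaks. The members were thus chosen by the measured start and end of each peak, and number, span, filling, place, width and score of the members are given below as a description, without a test.

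The peaks came from H1, an established human embryonic stem cell line, differentiated as a monolayer into cardiac progenitors and taken on day 7. The design text places the ChIP in a line whose endogenous TET1 carries a V5 epitope tag, while the genotype label of both libraries reads wild type. The extraction text speaks of genomic DNA purified with a kit and gives no immunoprecipitation step, so what the peaks are rests on the title and the design text. The WNT activator CHIR99021 (6 µM) was given first and the WNT inhibitor IWP2 (5 µM) later, and both groups share this treatment. There was 1 V5 ChIP library and 1 input library, with no replicate and no V5 ChIP of untagged cells, so TET1 signal and unspecific signal of the antibody cannot be told apart. Neither the clone history of the tagged line nor markers of the progenitor state were analysed here. The read depth was unknown.

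TET1 is a dioxygenase that oxidises 5-methylcytosine in DNA, a first step towards removing the methyl group. It carries a CXXC zinc finger, a domain that binds DNA rich in CpG, and it is known in stem cells and their progeny for sitting at CpG-rich promoters and enhancers. Peak callers report each separate stretch of enriched reads as its own peak. A peak list by itself therefore does not tell a single long domain with dips in the signal from a series of separate binding sites, and the word run is used here for both.

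The runs were long and mostly filled with signal. Their median span, from the start of the first peak to the end of the last, was 19.8 kb (19777.5 bp, quartiles 15260.25 and 25560.75 bp), and spans ran from 7837 to 96053 bp. Together they spanned 11.7 Mb, of which peaks covered 8.67 Mb, or 73.9%. The median run was covered to 72.9% (quartiles 64.9% and 80.2%). In 20 runs 50% or less of the span was covered, and in another 20 runs 90% or more. The members made up 7.31% of the peaks but 9.66% of all covered sequence.

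The number of peaks per run fell off steadily. There were 246 runs of 5 peaks, 115 of 6, 70 of 7, 40 of 8, 20 of 9 and 14 of 10, and 37 runs held 10 or more. The fullest had 21, 20 and 19 peaks. Runs with more peaks were longer but not better filled: the median covered share was 73.1% for runs of 5, 72.1% for runs of 7 and 72.7% for runs of 10. Over all 528 runs the number of peaks and the covered share had a Spearman's rho of 0.02, a description over runs of 1 library.

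**Figure D1:**
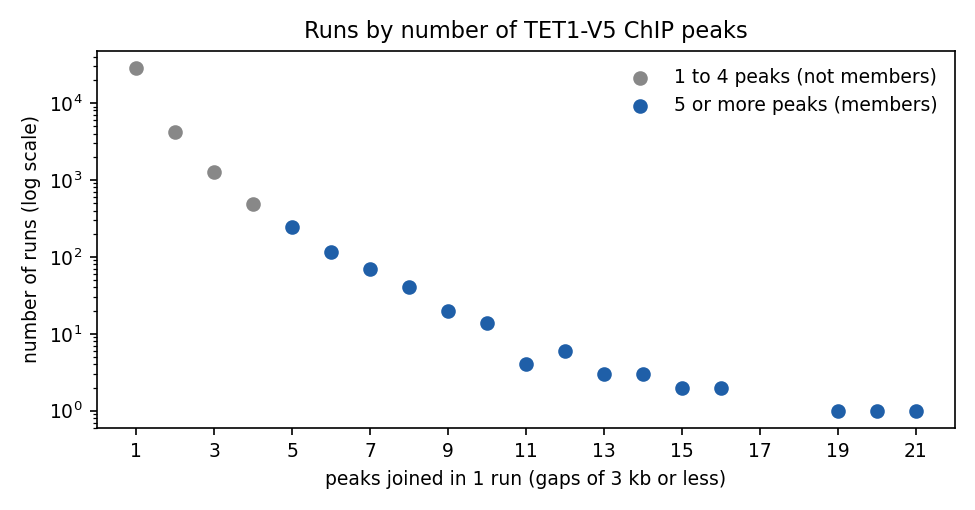
Number of runs (log scale) against the number of peaks joined in 1 run at gaps of 3 kb or less. Points fall from 28643 single peaks to 487 runs of 4 and 246 runs of 5, and the 3 fullest runs, of 19, 20 and 21 peaks, occur once each.

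The cut at 5 peaks divides a continuous scale. The 487 runs of 4 peaks, just outside it, had a median span of 11968 bp, a median covered share of 71.1% and peaks of a median width of 1640 bp. The 246 runs of 5, just inside, had 16159.5 bp, 73.1% and 1786 bp. The gap limit likewise cuts through an even stretch: 230 gaps between neighbouring peaks were up to 100 bp shorter than the limit or equal to it, and 246 were up to 100 bp longer. Of the runs of 5 peaks, 76 (30.9%) contained a gap over 2500 bp and would have been broken by a slightly shorter limit.

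Gaps inside runs were mostly much shorter than the limit. The 2841 gaps had a median of 851 bp (quartiles 320 and 1719 bp). Of these, 986 (34.7%) were 500 bp or shorter and 242 (8.52%) were over 2500 bp. In runs of 2 to 4 peaks the median gap was 1060 bp (quartiles 387 and 1926 bp). Midpoints of neighbouring members lay a median of 3294 bp apart (quartiles 2373 and 4465.5 bp). The gap bore little relation to the mean width of the peaks on either side (Spearman's rho -0.07 over 2841 gaps).

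The longest run lay on chromosome 19 from 1204495 to 1300547 on hg19 and spanned 96053 bp. It held 12 peaks that covered 88.5% of it, and 5 of them had a score of 3100 or more. Scores are the authors' own value per peak and start at 50, and many are tied at 3100. A score of 3100 or more is called the ceiling here, although some scores lie above 3100, up to 3233.06 in the runs. All of chromosomes 1 to 22 and X had 4.69% of peaks at the ceiling. The run opened with a peak of 7974 bp at the ceiling, followed by peaks of 2316, 6588 and 2296 bp with scores of 368.81, 1206.12 and 226.82. Its core was a peak of 17344 bp and a peak of 16774 bp, both at the ceiling and 3 bp apart, and the next ceiling peak, of 8270 bp, began after another 236 bp. It then continued with 5717 bp (score 2819.83), 2362 bp (241.27) and 10588 bp (3100), and thinned out through 3632 bp (578.96) to a last peak of 1124 bp with a score of 85.31. Wide peaks at the ceiling thus stood at the start, in the middle and towards the end of this run, with narrower, lower-scoring ones between them and last in line.

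The run with the most peaks was built differently. It lay on chromosome 16 from 88502567 to 88583638, spanned 81072 bp and held 21 peaks that covered 87.8%. Only 1 of them was at the ceiling, a peak of 6587 bp, and its neighbour of 8363 bp scored 1402.49. The widest member, 10493 bp, scored 2597.02. The median width was 2701 bp and the median gap 405.5 bp, and no gap exceeded 1491 bp. This run would have stayed whole at a limit of 1500 bp, whereas the longest run, with a gap of 2447 bp, would have been broken.

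Other long runs differed in how tightly they were filled. The run on chromosome 19 from 1379945 to 1457818 (77874 bp) held 19 peaks over 70.7% of its span, with a median gap of 1306 bp. A peak of 8323 bp at the ceiling lay next to one of 5777 bp scoring 2669.15, and 4 of the 19 peaks scored below 100. On the same chromosome the run from 767850 to 836374 (68525 bp) held 20 peaks with a median width of 1483 bp, 8 of them below 100 and 2 at the ceiling, the wider of 12335 bp. In the run on chromosome 9 from 137206295 to 137282515 (76221 bp, 15 peaks, 85.4% covered) a ceiling peak of 7536 bp was second in line, behind 8865 bp with a score of 1239.53, and 5 members were 5 kb or wider.

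**Figure D2:**
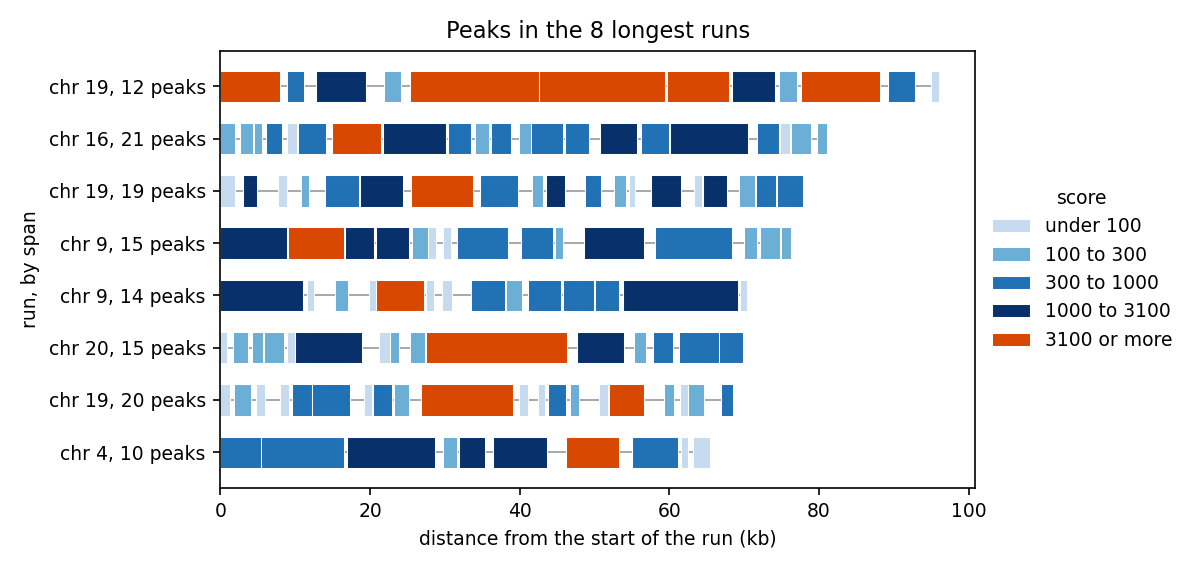
Peaks of the 8 longest runs, drawn as bars from the start of each run (kb) and coloured by the authors' score, with grey lines for gaps. The first run holds 5 peaks at the ceiling, 3 of them side by side, while the other 7 hold 1 or 2, set among peaks of lower classes.

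The 30 longest runs spanned 38860 to 96053 bp and lay on 11 chromosomes. The next longest spanned 38745 bp, so no break in the scale sets them apart. Chromosome 16 carried 6 of them, chromosome 9 carried 5, chromosome 19 carried 4 and chromosome 20 carried 3. They held 347 peaks, 10.3% of the members, in runs of 5 to 21. Their median covered share was 82.7% (62.3% to 90.4%). Genes at these positions are not named, since an hg19 annotation was not used here.

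On chromosome 16 the long runs came in neighbouring groups. One group comprised the run from 85449597 to 85500388 (14 peaks, 50792 bp) and that from 85554124 to 85609415 (16 peaks, 55292 bp). Another comprised the run of 21 peaks described above and the run from 88809763 to 88853424 (8 peaks, 43662 bp), whose widest peak measured 16228 bp. Near the other end of the chromosome lay the run from 1137787 to 1185443 (9 peaks, 47657 bp) and, 8857 bp after it, the run from 1194301 to 1249758 (13 peaks, 55458 bp). Neither of these last runs had a peak at the ceiling, and their highest scores were 923.32 and 1714.14.

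Chromosome 9 carried its long runs near its q end. The run from 139457232 to 139527633 (14 peaks, 70402 bp, 83.0% covered) had a widest peak of 15459 bp, and 5 of its peaks scored below 100. Beyond it lay the run from 139556081 to 139596600 (11 peaks, 40520 bp). The run from 138868275 to 138907433 (12 peaks, 39159 bp) had a median width of 1742.5 bp. In contrast, the run from 140107646 to 140151504 reached 43859 bp with only 5 peaks, whose median width was 6746 bp and which covered 90.4% of it.

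The same contrast between few wide and many narrow peaks held elsewhere. On chromosome 20 the run from 60924376 to 60967475 (43100 bp) owed most of its span to a single peak of 30384 bp at the ceiling, beside 4 peaks, of which 3 scored below 100. A run farther on, from 61019253 to 61089061, spread 69809 bp over 15 peaks, the widest of 18905 bp. Another, from 62453849 to 62497989, held 9 peaks over 44141 bp. On chromosome 17 the run from 80247550 to 80297748 had 16 peaks over 50199 bp and none of 5 kb or more, while that from 38462784 to 38521305 had 12 peaks over 58522 bp, 2 of them at the ceiling. On chromosome 4 the run from 1747111 to 1812540 held 10 peaks over 65430 bp with a median width of 5733 bp. Chromosome 10 had a run from 135032220 to 135081249 (13 peaks, 49030 bp) with no peak wider than 4035 bp and none scoring above 1007. Chromosome 11 had, from 2153871 to 2193923, the least filled of the 30: its 10 peaks covered 62.3% of 40053 bp, with 1 at the ceiling and a widest of 9074 bp.

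Chromosome 8 had runs from 142355890 to 142404369 (14 peaks, 48480 bp, highest score 1930.97) and from 145717873 to 145757655 (8 peaks, 39783 bp, 89.0% covered, 2 at the ceiling). Chromosome 5 had one near its p end, from 1094502 to 1134006 (9 peaks, 39505 bp, widest peak 16785 bp), and one from 139047023 to 139092526 (9 peaks, 45504 bp), and neither had another run within 500 kb. Chromosome 7 had runs from 102128638 to 102174051 (7 peaks, 45414 bp) and from 102227693 to 102273406 (8 peaks, 45714 bp). The second run on chromosome 11, from 118765907 to 118804766 (38860 bp), held 5 peaks, 2 of them at the ceiling and the widest of 15972 bp.

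Among the 30 longest, the run on chromosome 19 from 50595446 to 50639671 stood out by its scores. Its 8 peaks covered 87.5% of 44226 bp and had a median width of 4764.5 bp, yet no score exceeded 169.14. A peak of 7898 bp scored 50.09, next to the floor of the list, and the peak of 5813 bp scored 68.8. Peaks of all runs scoring below 100 had a median width of 1036 bp. Its midpoints were evenly spaced, 5064.5 to 7067.5 bp apart. Among all 528 runs only 1 other combined a median width of 3 kb or more with no score of 300 or more. That run lay on chromosome 4 from 9332979 to 9370775, with 9 peaks over 37797 bp, a highest score of 237.21 and midpoints 3276 to 5508 bp apart. How reads map at these positions was not analysed here.

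In median score the members were close to the whole list, fewer of them scored high, and they were wider. Their median score was 176 (quartiles 86.4 and 569) against 172 (82.4 and 659) for all peaks of chromosomes 1 to 22 and X. The share below 100 was 31.1% (Wilson 95% interval 29.6% to 32.7%), beside 32.9% of all peaks. At the ceiling stood 166 members, 4.93% (4.25% to 5.71%), beside 4.69% of all peaks. The share scoring 1000 or more was 15.5% (14.3% to 16.8%) in runs, 18.6% (18.3% to 18.98%) among all peaks and 20.8% (20.3% to 21.3%) among the 28643 single peaks with no neighbour within 3 kb. It was also low in shorter runs, 15.3% in runs of 2 and 14.3% in runs of 3 or 4, so it was not particular to the members. All such intervals reflect counting error alone, and they count each peak as a separate draw although neighbours share their signal.

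The median member was 1798 bp wide (quartiles 1164 and 3091 bp), against 1516 bp for single peaks and 1531 bp for all peaks. In runs of 2 the median was 1497 bp, and in runs of 3 or 4 it was 1557 bp. Members of 5 kb or more numbered 332, or 9.85% (8.89% to 10.9%) of the members, where 3.2% of all peaks are as wide, and they were 22.5% of the 1478 such peaks. Of the 134 peaks of 10 kb or more, 61 (45.5%, 37.3% to 54.0%) lay in runs. Width enters the rule, because a wider peak leaves a shorter gap to its neighbour.

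The difference in width grew with the score. Between scores of 50 and 100 members had a median width of 1036 bp and other peaks 1001.5 bp. From 100 to 300 the medians were 1666 and 1423 bp, and from 300 to 1000 they were 2906 and 2141.5 bp. From 1000 to 3100 they reached 4638 and 2767 bp, and at the ceiling 6673.5 and 3858.5 bp. Weak peaks were thus about as narrow inside runs as outside them, whereas strong peaks inside runs were much wider than peaks of the same score class elsewhere. The rank correlation of width and score was 0.90 among members and 0.86 among other peaks, both from the same peak call.

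**Figure D3:**
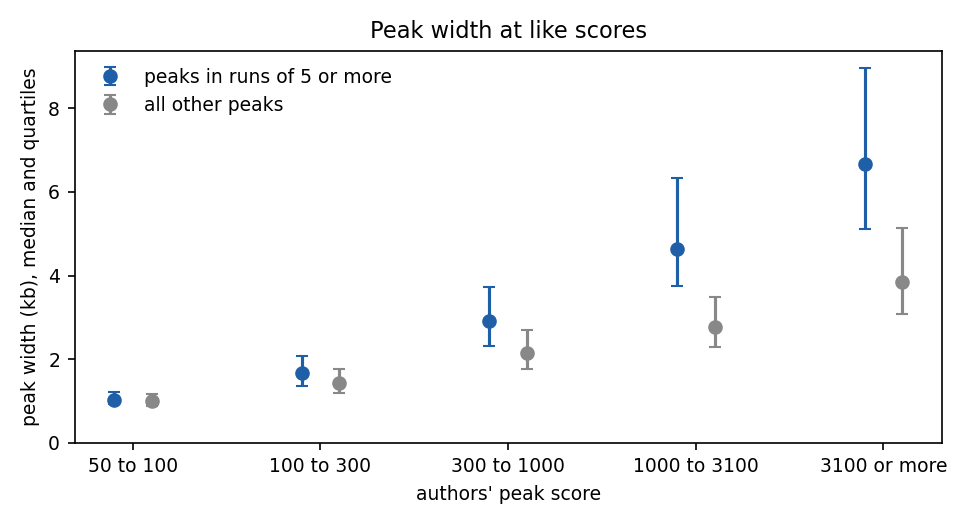
Peak width (kb, median with quartiles) by class of the authors' score, for the 3369 peaks in runs and the other 42748 peaks. The medians lie together below a score of 100 and part as scores rise, to 6.67 kb against 3.86 kb at the ceiling.

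Scores were mixed within runs. A score of 1000 or more was reached in 315 runs (59.7%, 55.4% to 63.8%), and 263 runs (49.8%, 45.6% to 54.1%) held both such a peak and one below 100. A peak at the ceiling was present in 143 runs (27.1%, 23.5% to 31.0%), and 20 runs had 2 or more. The highest score lay between 1000 and 3100 in 172 runs, between 300 and 1000 in another 172, and below 300 in 41. A peak scoring below 100 was present in 461 runs (87.3%, 84.2% to 89.9%). The median run had a highest score of 1470 but a median score of 182. In 225 runs (42.6%) at least 1 peak was 5 kb or wider.

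Widths inside a run were uneven. The widest peak was a median of 4.58 times as wide as the narrowest (quartiles 3.33 and 7.11) and supplied 33.2% of the covered length (quartiles 27.3% and 40.4%). In 39 runs it supplied 50% or more. The ratio reached 37.5 in the run of chromosome 20 with the 30384 bp peak, and was lowest, 1.29, in a run of 5 peaks on chromosome 3 from 194047262 to 194058001, whose widths ran from 898 to 1159 bp. In 393 runs (74.4%, 70.5% to 78.0%) the widest peak also had the highest score of its run. Widths of neighbouring members were only weakly related (Pearson's r of log2 widths 0.12 over 2841 pairs, and 0.12 over 8168 pairs in runs of 2 to 4).

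First, inner and last peaks of a run had similar widths and scores. The first peak had a median width of 1779.5 bp, the inner peaks 1811 bp and the last peak 1720.5 bp, with quartiles that overlapped almost fully. Their median scores were 173, 174 and 191. The widest peak was first or last in 181 runs, 34.3% (30.4% to 38.4%) of the runs. First and last peaks made up 31.3% of the members, but this is a share of peaks that long runs lower. These shares are therefore not directly comparable. The narrowest peak was first or last in 181 runs too. In runs of 5 the median width by place was 1794.5, 1659, 2016.5, 1829.5 and 1747.5 bp, so the middle peak had the highest median. In runs of 7 the middle peak again had the highest median, 2163.5 bp, with the other places between 1675 and 1910 bp. In runs of 6 the medians were 1658, 1818, 1520, 1730, 1597 and 1626 bp. In runs of 8 the last peak had the highest median, 2040 bp, so the highest median did not always lie in the middle. In 226 runs (42.8%, 38.6% to 47.1%) the median width of the inner peaks was above the mean of the first and last. A median and a mean are unlike measures of skewed widths, so this share does not show wider end peaks. Over all runs, first and last peaks together had a median width of 1739 bp.

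Runs were spread unevenly over the chromosomes. Chromosome 19 had 69, chromosome 16 had 60 and chromosome 17 had 57, and these 186 runs were 35.2% of all, on chromosomes with 19.1% of the peaks. Next came chromosome 1 with 49, chromosome 9 with 37 and chromosome 11 with 33. Chromosome 12 and chromosome 15 had 7 each, chromosome 6 had 6, chromosome 18 had 3 and X had 2.

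As a share of its peaks, chromosome 16 was highest, with 17.3% (15.8% to 18.8%) in runs, followed by chromosome 19 with 14.1% (12.9% to 15.4%). Members come in whole runs and not as separate draws, so such intervals are too narrow and set no chromosomes apart. Chromosome 17 followed with 11.4% (10.3% to 12.6%) and chromosome 9 with 11.3% (10.03% to 12.6%). Chromosome 22 had 171 of 1714 peaks in runs, 9.98% (8.65% to 11.5%). The autosomal median was 6.85%. Lowest were chromosome 6 with 1.61% (1.13% to 2.27%), chromosome 3 with 2.06% (1.53% to 2.76%) and chromosome 12 with 2.24% (1.67% to 3.00%), and X had 1.94% (1.23% to 3.04%).

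**Figure D4:**
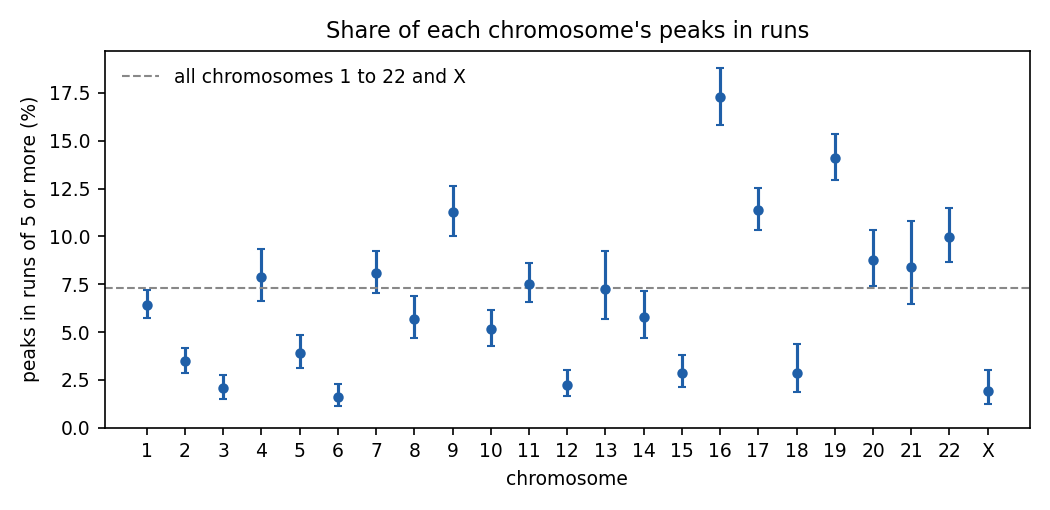
Share of each chromosome's peaks that lie in runs of 5 or more (%), with Wilson 95% intervals, and the share over all chromosomes as a dashed line. Chromosomes 16, 19, 17, 9, 22 and 20 have the highest shares, above the line, and chromosomes 2, 3, 5, 6, 12, 15, 18 and X have the lowest. The intervals count each peak as a separate draw, although members come in whole runs.

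Per length, chromosome 19 had 12.5 runs per 10 Mb, chromosome 22 had 8.73, chromosome 16 had 8.55 and chromosome 17 had 7.68, against an autosomal median of 1.74 and a minimum of 0.411 on chromosome 6. Set against gene number, the order changed: chromosome 16 had 7.03 runs per 100 protein-coding genes and chromosome 22 had 6.65, while chromosome 19 had 4.76, the same as chromosome 9 with 4.76. The gene-rich chromosome 19 was thus first by length and not by genes. X had 0.236 per 100 genes and the autosomes 0.572 to 7.03. Over the 22 autosomes the share of peaks in runs went with genes per Mb at Pearson's r 0.64 (Spearman's rho 0.59), and with peaks per Mb at r 0.73 (rho 0.73). Leaving out chromosomes 19 and 17, farthest from the median in genes per Mb, gave r 0.55. Leaving out chromosomes 19 and 22, farthest in peaks per Mb, gave r 0.72. The points share 1 library and the second relation is partly built in, since denser peaks have shorter gaps.

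The runs gathered near chromosome ends more than peaks in general. Ends were the last peak of each chromosome and, where a peak lay within 1 Mb of position 0, that position, which gave 18 p ends and 23 q ends. Of the 3369 members 1909 lay in the terminal 5 Mb, 56.7% (55.0% to 58.3%), where 21.7% of all peaks lie. The share rose with the length of the run: it was 14.2% (13.8% to 14.6%) for single peaks, 24.97% (24.1% to 25.9%) for runs of 2 and 34.0% (32.8% to 35.2%) for runs of 3 or 4. Of the 30 longest runs 24 lay there. The median run lay 4.58 Mb from its nearest end (quartiles 1.37 and 18.9 Mb), and the median peak of the list 22.2 Mb.

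Read from the other side, 19.1% (18.3% to 19.8%) of terminal peaks were in runs and 4.04% (3.85% to 4.25%) of peaks elsewhere. Compared within chromosomes the ratio of these shares was 4.29 (Mantel-Haenszel), and it was above 1 on 21 of 23 chromosomes, the exceptions being 15 and X, whose terminal 5 Mb held no run. The share was 24.2% (22.5% to 25.9%) in the first Mb from an end and 26.0% (24.3% to 27.7%) in the next, then 12.6% (11.7% to 13.5%) from 2 to 5 Mb, 7.45% (6.74% to 8.24%) from 5 to 10 Mb and 2.80% (2.54% to 3.09%) beyond 40 Mb. Terminal regions are also denser in peaks. In 1 Mb windows with 50 or more peaks, 24.7% (23.7% to 25.7%) of terminal peaks were in runs and 9.81% (9.24% to 10.4%) of the others, but this class is not matched in density: the median window of these peaks held 103 peaks in terminal regions and 66 elsewhere. In narrower classes the shares were 12.1% (10.6% to 13.8%) and 7.51% (6.89% to 8.18%) with 50 to 74 peaks, 18.2% (16.5% to 20.02%) and 13.6% (12.5% to 14.9%) with 75 to 99, and 33.1% (31.6% to 34.6%) and 17.4% (13.9% to 21.5%) with 100 or more. In windows with 10 to 49 peaks the shares were 4.56% (3.82% to 5.44%) and 2.42% (2.22% to 2.64%). The class of 100 or more has no upper limit and held 3810 terminal peaks and 374 others. Density was not matched inside any of these classes, so a difference beyond density was not tested.

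**Figure D5:**
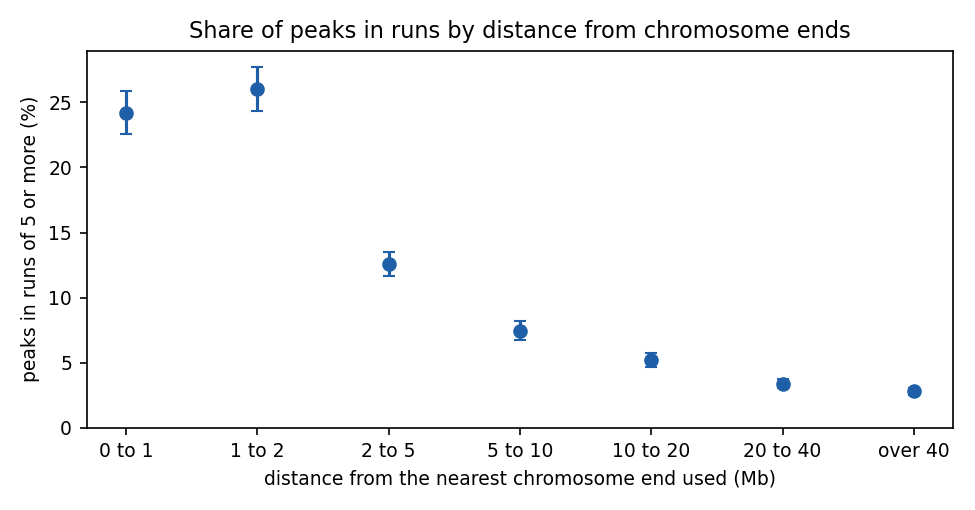
Share of peaks in runs of 5 or more (%) by distance from the nearest chromosome end used (Mb), with Wilson 95% intervals. The share is highest in the 2 Mb next to the ends, at 24.2% and 26.0%, and falls through each further class to 2.80%.

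The ends were not alike. The p end of chromosome 19 held 26 runs, with 200 of its 637 peaks, or 31.4% (27.9% to 35.1%). Chromosome 16 had 25 runs at its p end and 21 at its q end. There were 25 at the q end of chromosome 9, 20 at the q end of 17 and 18 at the p end of 1. These 6 ends carried 135 of the 282 terminal runs, 47.9%. By share the q end of 9 (32.7%, 28.9% to 36.8%), the q end of 20 (32.7%, 27.9% to 37.8%) and both ends of 16 (p 32.0%, 28.1% to 36.1%, q 31.0%, 27.3% to 35.0%) lay near the p end of 19. In 11 of the 41 ends there was no run. These included the q end of chromosome 6, with 179 peaks, and the p end of chromosome 20, with 147.

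Runs also lay close to each other. Another run was found within 100 kb of 276 runs (52.3%, 48.0% to 56.5%), and within 10 kb of 82 runs (15.5%, 12.7% to 18.9%). Such closeness is partly built in, since the rule splits a dense stretch at any gap over 3 kb. No like share over all peaks or shorter runs is given here. In 52 pairs of successive runs no other peak lay between them. The closest pair lay on chromosome 16, where a run of 10 peaks from 589833 to 622078 and a run of 5 from 625147 to 645810 were 3068 bp apart. In the 1 Mb window of chromosome 9 from 139000001 to 140000000 there were 12 runs, and 84 of the window's 153 peaks (54.9%) belonged to them. The first Mb of chromosome 19 held 11 runs with 86 of 144 peaks (59.7%), and the window of chromosome 16 from 85000001 to 86000000 held 9 runs with 79 of 147 (53.7%). On chromosome 1 the window from 3000001 to 4000000 held 8 runs with 51 of 132 peaks (38.6%). In all, 257 of the 2720 windows with a peak contained the midpoint of a run, and 23 of them contained 5 or more.

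A few runs had few other peaks around them. The median run had 78 other peaks within 500 kb of its midpoint (quartiles 53.75 and 108). For the median peak of the list the number was 37 (quartiles 15 and 66). With 10 or fewer there were 8 runs, and the share of all peaks with so few is not given here. On chromosome X the run from 114959910 to 114997911 had 3. It held 13 peaks over 38002 bp, was covered to 88.2% and had no gap over 968 bp, with widths from 943 to 5880 bp and scores from 55.38 to 783.9. Likewise the run on chromosome 13 from 57714617 to 57743818 had 3 other peaks around it, and its 10 peaks over 29202 bp scored between 54.81 and 126.21. Of these, 7 were 1356 to 1654 bp wide and 3 were 2481 to 2899 bp wide, and no 2 of the 3 wider ones were neighbours.

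Others among the 8 carried strong peaks. The run on chromosome 15 from 96864011 to 96891251 (6 peaks, 27241 bp, 88.4% covered) held a peak of 8541 bp at the ceiling, with 4173 bp scoring 1215.29 right after it and 4251 bp scoring 1229.37 first in line, and had 10 other peaks within 500 kb. On chromosome 14 the run from 38052275 to 38069907 had 4. Its 5 peaks, of 1821 to 3066 bp, scored from 447.01 to 2412.2, so none was weak, and the highest scores were those of the neighbouring peaks of 2612 and 3066 bp. Another, on chromosome 7 from 150064658 to 150082422, opened with its ceiling peak, 3406 bp at 3203.3. The remaining runs of this kind lay on chromosome 9 from 44989482 to 45011770 and from 67778396 to 67794945, and at the very start of chromosome 1 from 16000 to 35338, where a peak of 2917 bp at the ceiling stood among 4 peaks scoring 61.09 to 170.68. For the run on chromosome 1 the 500 kb window is cut short by the chromosome start. Another peak lay 4998 bp before that run, 4874 bp before the run on chromosome 7 and 4556 bp before the second run on chromosome 9. The mapping of reads at these 8 places was not analysed here.

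The other run on X, from 39941675 to 39970454, held 5 peaks over 28780 bp, 2 of them at the ceiling and the widest of 10119 bp, and had 30 other peaks within 500 kb. X thus had only 2 runs, but both spanned more than the upper quartile of all runs, 25560.75 bp.

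Spacing within runs was irregular as a rule. The coefficient of variation of the distances between neighbouring midpoints had a median of 36.6% (quartiles 27.7% and 46.7%). It was lowest, 4.52%, in the run of 5 on chromosome 16 from 845054 to 858840, with distances of 2863 to 3152.5 bp, and 4.82% in the run of 5 on chromosome 5 from 1827805 to 1841983, with 2932 to 3230.5 bp. Each of these rests on only 4 distances. It was 51.8% in the run of 21 peaks on chromosome 16, 55.5% and 41.3% in the runs of 20 and 19 peaks on chromosome 19, and 46.0% in the longest run.

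The extremes of filling show the range of what the rule gathers. The best filled run, on chromosome 21 from 46823434 to 46861041, was covered to 97.4% of 37608 bp by 7 peaks with a median gap of 73.5 bp, including 1 of 18203 bp. Nearly as full, the run on chromosome 17 from 79358696 to 79388258 was covered to 97.0% by 5 peaks, of which 1 of 19433 bp supplied 67.7%. The least filled, on chromosome 10 from 131681932 to 131697546, had 6 peaks of 776 to 1192 bp that covered 36.6% of 15615 bp, and its highest score was 110.85.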

How the data were processed

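The labels list 1 V5 ChIP and 1 input library of day 7 progenitors, with an extraction text that describes genomic DNA only. Reads were aligned with BWA 0.7.17 to hg19, per the submitters' processing notes, and the peak names in the deposited file show that MACS called the peaks, in a version and with settings not given in the sources used here. Positions and 1 score per peak, of unstated scale, were deposited by the authors. The score is used only to describe peaks within this list. Starts were counted from 1. Peaks on Y and on phiX174 were left out. Runs, shares and 95% Wilson intervals were computed in Python (3.11.15) using scipy 1.17.1, numpy 2.4.6 and pandas 2.3.3, and the run search was tested on simulated peaks. Peaks per Mb used the stretch from first to last peak without peak-free intervals over 1 Mb. Gene numbers per chromosome came from the RefSeq table of GRCh38.p14 and no position of it was used. The naming rule for genes at the 30 longest runs, the gene lists and sequences needed hg19 annotation, which was not used here; runs were ranked by span instead. Runs with few neighbours, low scores, even spacing or extreme filling were picked after their values were seen. The members and lists were chosen with earlier results of these data known. With 1 library a group no p-value is given. Alternatives were other gap limits, run sizes, score thresholds, merging and terminal lengths.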

Additional observations from a re-analysis of the deposited data

Results flagged for a closer look

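Chromosome Y was outside the rule but 1 run was listed on it, noticed because it lies in data that the comparisons above do not use. It held 6 of the 90 Y peaks, from 134581 to 151026, spanned 16446 bp and was covered to 82.7%. Its median width was 2163 bp, its median score 552 and its highest score 1773.4. No control peak list was used beside it. How reads map there was not analysed here, so whether they came from Y was not tested.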

How the results depend on the processing

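Of 44 alternative values for 6 results, 4 stayed near the value as deposited (counts within 1.5 times, shares and medians within the counting interval) and 40 moved, as gap and size limits define the members. The 4 were the covered share with runs of 4 or more and of 8 or more peaks, and the terminal share without chromosome 19 and without chromosome 17. A gap limit of 1000 bp gave 89 runs with 511 peaks (1.11% of peaks), a median covered share of 88.8%, a terminal share of 62.8% and a median span of 16094 bp. A limit of 5000 bp gave 969 runs, 6854 peaks (14.9%), 60.2%, 48.5% and 23159 bp. Runs of 4 or more numbered 1015 with 5317 peaks (11.5%), a terminal share of 48.7% and a span of 15096 bp. Runs of 8 or more numbered 97 with 959 peaks (2.08%), 71.3% terminal and 33864 bp. Only the upper 50% of peaks by score gave 61 runs, 350 peaks (1.52%), 80.0% covered, 66.6% terminal (20.1% of all such peaks) and 25801 bp. Merging peaks up to 1 kb apart gave 104 runs, 577 peaks (1.42%), 68.9% covered, 62.0% terminal (19.5% of all merged peaks) and 26527 bp. The terminal share was 38.7% for 2 Mb (all peaks 11.3%) and 67.0% for 10 Mb (all peaks 31.9%). Without chromosome 19, 16 or 17, chosen after seeing the data, 6.81%, 6.74% and 7.00% of peaks were in runs, and without chromosome 16 the terminal share was 53.4%. The terminal share of run peaks was above that of all peaks in each setting where both were computed. The alternatives on gene starts need an hg19 annotation and were not run. No paired analysis was possible because the ChIP and the input are single libraries. No depth was given, so what depth limits cannot be stated.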
